A study of Homo sapiens with 4 samples.

Results

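The genes described here make, carry, sense and remove retinoic acid: STRA6, RDH10, DHRS3, ALDH1A1, ALDH1A2, ALDH1A3, CRABP2, RARB, CYP26A1 and CYP26B1, 10 of 19775 genes measured. They were taken by symbol from the probe sets annotated to exactly 1 gene, which gave 22 of 54613 probe sets. Each gene is reported from its brightest probe set, and the others serve as a check. The family was singled out because ALDH1A1 was among the largest rises in these same data, so its difference is described here without a test. The members were thus chosen by name, with that rise known, and their probe sets were selected on the mean log2 intensity over the 4 arrays.

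RNA was measured on 4 arrays of AGS, a cell line from a human gastric adenocarcinoma. The 2 knockout arrays came from AGS cells in which PRMT6 had been disrupted with a single guide RNA in the lentiviral Cas9 vector lentiCRISPR v2, with selection in puromycin and cloning by limiting dilution. The 2 control arrays came from AGS cells with wild-type PRMT6. The labels name neither the clone behind a knockout array nor the vector, the selection or the clonal state of the control cells, so effects of the gene, of the clone and of the vector cannot be told apart. All cells were kept in RPMI1640 with fetal bovine serum, and no retinoid treatment is named. PRMT6 is an arginine methyltransferase that marks arginine 2 of histone H3. The study asks which transcripts differ when it is disrupted.

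Cells obtain retinoic acid from vitamin A (retinol) in steps. Retinol is taken up through STRA6 and oxidised to retinaldehyde, chiefly by RDH10, a step that DHRS3 runs in reverse, and the ALDH1A enzymes then oxidise retinaldehyde irreversibly to retinoic acid. CRABP2 hands the acid to nuclear receptors (RARA, RARB and RARG, paired with RXR), which bind direct repeats of a short DNA motif, and CYP26 enzymes destroy it. RARB, CYP26A1, DHRS3 and STRA6 are themselves commonly induced by retinoic acid, and ALDH1A1 is also used as a marker of stem-like cells in several carcinomas.

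RefSeq promoter windows (GRCh38.p14, 250 bases before to 50 after a gene's start) were searched on both strands for a motif of retinoic acid receptors. This was DR5, a direct repeat of a 6-base unit with 5 bases between the copies, spelled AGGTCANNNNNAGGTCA. Each copy may also have G as the first base and T as the third. There were 20 windows for 9 of the members, and RDH10 had none. Of all 35116 windows 31 held a DR5, or 0.0883%. Among the members' windows 2 did, 1 of RARB and 1 of CYP26A1. The same unit with 1 base between the copies (DR1, in 0.131% of all windows) or with 2 (DR2, in 0.0399%) was found in 0 of the members' windows. The 100 bases before these starts are shown with the DR5 in capitals, together with those of ALDH1A1, the gene with the large difference, where the capitals mark a CCAAT motif. CCAAT on either strand is common (34.6% of all windows, and 7 of the members' 20).
RARB: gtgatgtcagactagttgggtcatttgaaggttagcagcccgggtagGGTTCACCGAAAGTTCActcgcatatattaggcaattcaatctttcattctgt
CYP26A1: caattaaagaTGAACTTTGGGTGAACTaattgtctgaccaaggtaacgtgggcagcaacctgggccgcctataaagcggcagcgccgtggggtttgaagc
ALDH1A1: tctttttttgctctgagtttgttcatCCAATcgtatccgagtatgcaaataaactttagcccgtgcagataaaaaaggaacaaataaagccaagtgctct

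The RARB stretch lies at chr3:25428163-25428262 on the plus strand, with the repeat at positions -53 to -37, counted back from the base just before the start. That of CYP26A1 lies at chr10:93073793-93073892 on the plus strand, with the repeat at -90 to -74 and read on the opposite strand. That of ALDH1A1 lies at chr9:72953054-72953153 on the minus strand, just upstream of a gene that spans chr9:72900671-72953053. A match is a run of letters and not a measured site of binding.

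Array medians of the log2 intensities ran from 5.01 to 5.02. PRMT6 itself read 7.79 and 7.63 on the knockout arrays and 8.03 and 8.11 on the control arrays. It fell by 0.36 on the log2 scale (SE 0.09, adjusted p = 0.043, limma), and leaving out any 1 array ended this call (adjusted p 0.10 to 0.23). Transcript level does not test an edit of the coding sequence. Of 19775 genes 24.0% were called, 12.4% higher and 11.5% lower in the knockout, and the arrays of the groups did not overlap for 58.2% of genes. Scaling the arrays to equal means of 9 reference genes, of which 5 were called higher and 0 lower, moved the median change of all genes to -0.32, against -0.01 on the deposited scale. AGS cells read as epithelial: 7 simple epithelium markers had mean levels of 9.32 to 13.25, with EPCAM at 12.53 and 12.38 on knockout arrays and 12.51 and 12.57 on control arrays. Of these 7, KRT8 (0.49 on the log2 scale), KRT19 (0.61) and ELF3 (1.05) were called higher and CLDN4 (-0.46) and CLDN7 (-0.65) lower, each call lost with either knockout array left out, while EPCAM (-0.09) and KRT18 (-0.04) were not called. Their part in the results was not tested. Of 4 leukocyte and 5 endothelial markers 0 were called in limma. An unadjusted p below 0.05 was found for 3 and 0 of them, against 34.8% of all genes. The 3 leukocyte markers moved in both directions: PTPRC by 0.49, CD3E by -0.34 and CD14 by -0.32. Summed over the leukocyte markers, log2 levels ran from 16.90 to 16.98 in the knockout and from 17.12 to 17.29 in the control. The endothelial sums were 20.58 to 21.18 in the knockout and 20.02 to 20.99 in the control.

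In PRMT6-knockout cells ALDH1A1 was higher by 6.32 on the log2 scale (n = 2 arrays a group), about 80.1-fold, an approximate figure because its control level may lie at background. RDH10, the enzyme upstream of it, fell 1.82-fold. Of the 9 members tested, RDH10 was the only one past the test across all genes, a test that 24.0% of all genes passed. RDH10 no longer passed once knockout 1 or knockout 2 was dropped, with changes of -0.83 and -0.90 on the log2 scale. ALDH1A2 and ALDH1A3, which catalyse the same step as ALDH1A1, differed by 0.04 and -0.13 on the log2 scale. RARB was 1.22-fold higher and CYP26A1 1.16-fold lower, the members with a DR5 in their promoter windows, and neither passed the test. The arrays read bulk RNA, so more cells with a transcript and more transcript per cell cannot be told apart.

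ALDH1A1 read 8.94 and 9.06 on the knockout arrays, against 2.65 and 2.70 on the control arrays. Both knockout arrays were far above both control arrays, and the arrays within a group lay close together (9.002 ± 0.08 in the knockout and 2.68 ± 0.04 in the control, SD, n = 2). The difference was 6.32 on the log2 scale, 80.1-fold, and only 1 of the 19775 genes rose more. In the knockout the probe set stood at percentile 90.5 of all probe sets, and in the control at percentile 11.3. No detection calls were used, so the control level may lie at background and the fold is approximate. Only 1 probe set reads ALDH1A1, so no second one could be set beside it. The difference stayed between 6.01 and 6.38 under the alternatives that held the gene, which was not among the brighter genes. With 1 probe set, only reference gene scaling and leaving out an array could move it.

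The 3 genes whose pattern over the 4 arrays lay nearest to that of ALDH1A1 were ODAM, FGB and PCDH7. Likeness was the root mean square difference of log2 values, each gene first set to its own control mean, which compares sizes of change and not levels. It was 0.16 for ODAM, a secreted protein first known from enamel, whose change was 6.35 on the log2 scale. It was 0.45 for FGB, the fibrinogen beta chain, whose control arrays at 5.35 and 4.30 spread more than those of ALDH1A1. PCDH7, a protocadherin, was already further off (1.55), with a change of 4.13.

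Markers of fibroblasts were also compared between the groups. Of 6 such genes 3 were called higher in the knockout and 0 lower, where 24.0% of all genes were called and 12.4% higher. Their summed log2 levels ran from 30.71 to 31.06 in the knockout and from 26.48 to 27.66 in the control. For LUM and COL3A1 the brightest probe set over the 4 arrays was not the brightest in control arrays. Both genes thus entered this count and these sums through high knockout values. COL1A1 read 10.18 and 10.09 on knockout arrays and 8.55 and 8.60 on control arrays. LUM read 3.76 and 3.74 on knockout arrays and 2.25 and 2.52 on control arrays, low on all 4. COL3A1 read 3.50 and 4.09 on knockout arrays and 2.66 and 2.90 on control arrays. The rises were 1.56 for COL1A1, 1.37 for LUM and 1.02 for COL3A1 on the log2 scale. COL1A2 pointed the other way without passing the test (-0.32), with both knockout arrays, at 3.44 and 3.61, below both control arrays, at 3.68 and 3.997. DCN (0.12) and PDGFRB (0.06) were not called. With the probe set brightest in control arrays LUM (0.07) and COL3A1 (0.18) were not called. The LUM call was also lost with either knockout array left out, and the COL3A1 call with any 1 array left out. COL1A1 kept its call but changed by 0.72 with the mean of its probe sets. The part of these markers in the ALDH1A1 difference was not tested.

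**Figure D1:**
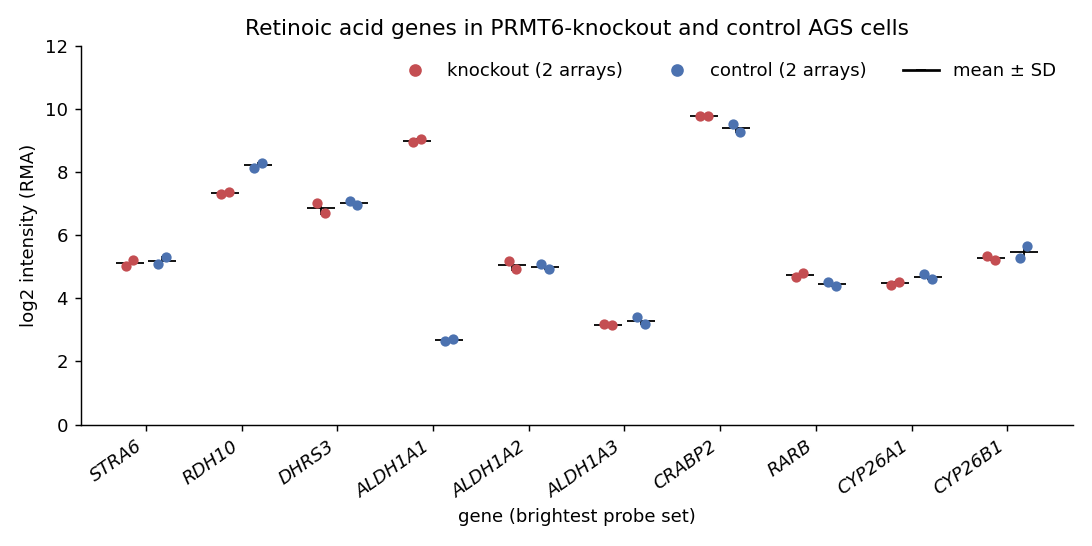
Log2 intensity (RMA) of the 10 genes, in the order of their roles from retinol uptake to retinoic acid breakdown, on the knockout arrays (red) and control arrays (blue), with the mean and SD in black (n = 2 each). ALDH1A1 stands at 8.94 and 9.06 in the knockout and at 2.65 and 2.70 in the control, RDH10 is lower in the knockout, and the means of the remaining genes differ by at most 0.37 on the log2 scale.

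At the entry of the pathway, STRA6, the membrane receptor for retinol bound to its serum carrier, read 5.02 and 5.21 on the knockout arrays and 5.08 and 5.30 on the control arrays. The groups overlapped, and the change was -0.07 on the log2 scale (95% confidence interval -0.36 to 0.22; adjusted p = 0.73, limma). Its other 2 probe sets pointed in opposite directions (0.21 and -0.17), neither past the test.

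RDH10, the dehydrogenase that turns retinol into retinaldehyde, read 7.32 and 7.38 on the knockout arrays and 8.14 and 8.29 on the control arrays. Both knockout arrays were below both control arrays. RDH10 fell by 0.87 on the log2 scale, or 1.82-fold, with an SE of 0.09, a 95% confidence interval of -1.09 to -0.64 and an adjusted p of 0.0032 (limma). All 4 probe sets of RDH10 were lower in the mean of the knockout arrays. In the fit over all probe sets, where 13.1% were called, the brightest was called (adjusted p = 0.0092), while the others changed by -0.35, -0.29 and -0.05 and were not. The 1 at -0.05 was also the dimmest, with a mean of 2.09. With either knockout array left out the gene's call was lost (-0.83 and -0.90, adjusted p = 0.063 and 0.061).

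DHRS3, the reductase that returns retinaldehyde to retinol, read 7.02 and 6.70 on the knockout arrays and 7.07 and 6.97 on the control arrays. The groups overlapped. Its change was -0.16 (95% confidence interval -0.48 to 0.17; adjusted p = 0.47, limma). DHRS3 is read by 1 probe set.

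The other retinaldehyde dehydrogenases did not pass the test. ALDH1A2, the main enzyme of this step in the vertebrate embryo, read 5.17 and 4.92 on the knockout arrays and 5.09 and 4.92 on the control arrays, with a change of 0.04 (95% confidence interval -0.26 to 0.34; adjusted p = 0.88, limma). ALDH1A3 read 3.19 and 3.14 on the knockout arrays, just below the control arrays at 3.40 and 3.19, with a change of -0.13 (95% confidence interval -0.38 to 0.12; adjusted p = 0.43, limma). Its probe set stood at percentile 20.8, and its second probe set, at 0.11, pointed the other way. The difference between their changes and that of ALDH1A1 was not tested, since ALDH1A1 had been chosen for its rise.

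CRABP2, which carries retinoic acid to its nuclear receptor, read 9.77 and 9.78 on the knockout arrays and 9.53 and 9.28 on the control arrays. Both knockout arrays were above both control arrays. The change of 0.37 (SE 0.11, 95% confidence interval 0.10 to 0.64), 1.30-fold, did not pass the test (adjusted p = 0.061, limma). It passed in 4 of the 11 limma alternatives. Adjusted p-values were 0.012 with an intensity trend in the prior, 0.014 among brighter genes and 0.047 with mean probe sets. Among brighter genes 2998 were called higher and 2569 lower. It also passed without control 1 (change 0.50), but not without control 2 (0.25) or with either knockout array left out (0.37 each). Under reference gene scaling the change was 0.06 (adjusted p = 0.59).

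RARB, the receptor gene with the DR5 printed above, read 4.67 and 4.81 on the knockout arrays and 4.52 and 4.39 on the control arrays. The groups did not overlap, and the change of 0.29 (SE 0.09, 95% confidence interval 0.05 to 0.53) did not pass the test (adjusted p = 0.090, limma). The 5 probe sets of RARB disagreed. The next brightest, at 4.67 and 4.89 in the knockout and 4.37 and 4.31 in the control, gave 0.44 (adjusted p = 0.066 over all probe sets). The third, at 4.06 and 4.05 in the knockout and 4.25 and 4.44 in the control, gave -0.29 (adjusted p = 0.16). The remaining 2 gave 0.12 and -0.03. As the gene's value, the probe set at 0.44 passed the test in the alternative that takes gene-specific probe sets (adjusted p = 0.039), whereas under reference gene scaling the change was -0.023.

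CYP26A1, which degrades retinoic acid and also has a DR5 in its window, read 4.43 and 4.52 on the knockout arrays and 4.77 and 4.61 on the control arrays. Both knockout arrays were below both control arrays, and the change of -0.22 (95% confidence interval -0.45 to 0.02) did not pass the test (adjusted p = 0.18, limma). CYP26B1, a second such enzyme, read 5.34 and 5.21 on the knockout arrays and 5.28 and 5.65 on the control arrays. Its change was -0.20 (95% confidence interval -0.55 to 0.16; adjusted p = 0.41, limma), and its other probe set gave 0.13.

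Apart from ALDH1A1, then, 0 members were called higher and 1 lower of the 9 tested, where 24.0% of all genes were called, and 3 (RDH10, CRABP2 and RARB) had an unadjusted p below 0.05, against 34.8% of all genes. The arrays of the groups did not overlap for 5 of the 9, against 58.2% of all genes. The median change of the 9 was -0.13, against -0.01 over all genes. The 95% confidence intervals of the 8 members that were not called lay between -0.55 and 0.64 (1.47-fold down, 1.56-fold up). They cover only the brightest probe set of each gene on the deposited scale. In the fit over all probe sets the interval of the second RARB probe set reached 0.72. RMA compresses differences of dim probe sets, so larger changes are not excluded. Under reference gene scaling 6 of the 9 were called lower and 0 higher, where 9873 of 19775 genes were called lower and 1084 higher. These 6 members were RDH10, CYP26A1 (-0.53), DHRS3 (-0.47), CYP26B1 (-0.51), ALDH1A3 (-0.44) and STRA6 (-0.38), and that scaling moved all genes down alike.

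**Figure D2:**
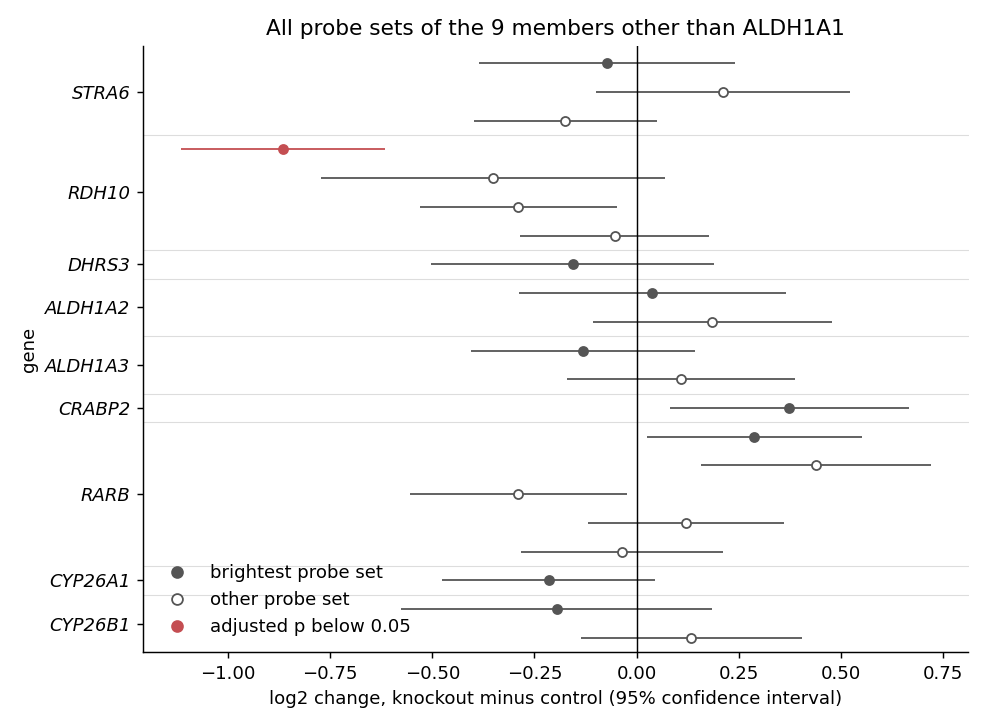
Log2 change, knockout minus control, with its 95% confidence interval for each of the 21 probe sets of the 9 members other than ALDH1A1, from the limma fit over all probe sets (2 knockout and 2 control arrays). Filled points are the brightest probe set of a gene and open points the others; only the brightest RDH10 probe set, at -0.87, passed an adjusted p below 0.05 (red), and the RARB probe sets lie on both sides of 0.

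Other genes of retinoid biology, in 5 lists, gave 47 measured genes of 58 listed, and the other 11 were not analysed here. Of the 47, 7 rose and 3 fell (limma), 10 in all, where 24.0% of all genes were called, and their median change was -0.02, against -0.01 over all genes. Under reference gene scaling 1084 of 19775 genes were called higher and 9873 lower, and of the 47 genes 3 were higher and 21 lower. With arrays left out in turn, 2 to 4 were called higher and 1 to 3 lower.

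The largest changes were in enzymes that reduce retinaldehyde among other carbonyls. AKR1C3 read 8.09 and 8.11 on the knockout arrays and 5.12 and 4.90 on the control arrays, a rise of 3.09 on the log2 scale (SE 0.10), 8.51-fold (adjusted p = 0.00024, limma). AKR1B10, an efficient retinaldehyde reductase, read 7.90 and 8.10 on the knockout arrays and 10.34 and 10.33 on the control arrays. It fell by 2.33 (SE 0.10), 5.04-fold (adjusted p = 0.00042, limma). These reductases moved in opposite directions. Both calls were kept under all 11 alternatives, as was that of FABP5. Each was read by 1 probe set, so the alternatives that change the probe set could not alter its change. Both reductases have close sequence relatives. Binding of other transcripts to their probes, or to those of FABP5, was not tested.

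Among the dehydrogenases of the RDH family, RDH11 rose by 0.54 (SE 0.10; 11.43 and 11.27 in the knockout, 10.76 and 10.87 in the control) and RDH13 rose by 0.51 (SE 0.09; 8.32 and 8.32 in the knockout, 7.89 and 7.75 in the control), with adjusted p-values of 0.015 and 0.013 in limma. Of the 4 probe sets of RDH13, 1 gave -0.92 and was not called. With the mean of its probe sets RDH13 was not called (0.12, adjusted p = 0.58). In all, 3 of 14 genes of retinol and retinaldehyde oxidation and reduction rose and 1 fell, where 24.0% of all genes were called. The call of RDH11 was lost with any 1 array left out. That of RDH13 was lost without control 2, knockout 1 or knockout 2 and was kept without control 1 (adjusted p = 0.040). Under reference gene scaling RDH11 changed by 0.23 and RDH13 by 0.19, and neither was called (adjusted p = 0.12 and 0.092).

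FABP5, a fatty acid carrier that can also deliver retinoic acid, to PPARD rather than to the retinoic acid receptors, read 11.63 and 11.67 on the knockout arrays and 10.63 and 10.59 on the control arrays. The knockout arrays were above the control arrays, and the rise was 1.04 (SE 0.08), 2.06-fold (adjusted p = 0.0014, limma). It was the only measured gene of 3 listed as carriers or breakdown enzymes. Among 8 genes of retinoid uptake and storage, where 24.0% of all genes were called, 1 rose, BCO1, which cleaves beta-carotene to retinaldehyde (3.95 and 4.04 in the knockout, 3.44 and 3.50 in the control; change 0.53, SE 0.08, adjusted p = 0.0097, limma). It lay low on all 4 arrays, and it was no longer called when any 1 array was dropped (highest adjusted p 0.10) or under reference gene scaling (adjusted p = 0.080).

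Of 10 receptors and coregulators 1 fell and 0 rose (limma; 1 at an unadjusted p below 0.05), where 24.0% of all genes were called and 34.8% had an unadjusted p below 0.05. NRIP1, a ligand-dependent corepressor, read 8.64 and 8.51 on the knockout arrays and 8.996 and 9.21 on the control arrays, and fell by 0.53 (SE 0.11, adjusted p = 0.022, limma). The other 9 were not called: RARA changed by -0.24, RARG by 0.18, RXRA by -0.03 and RXRB by -0.19. Dropping control 2, knockout 1 or knockout 2 ended the NRIP1 call (highest adjusted p 0.17).

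Of 14 genes known to respond to retinoic acid in other cells, 2 rose and 1 fell, where 24.0% of all genes were called. PLAAT4, a phospholipase also known as a retinoic acid receptor responder, read 7.20 and 7.28 on the knockout arrays and 6.64 and 6.54 on the control arrays, and rose by 0.65 (SE 0.08, adjusted p = 0.0058, limma). MEIS2, a homeobox factor, rose by 0.54 (SE 0.11, adjusted p = 0.020), whereas GPRC5A, a receptor first found as a retinoic acid-induced gene, fell by 0.66 (SE 0.12, adjusted p = 0.014). All 3 probe sets of GPRC5A were lower in the knockout. TGM2 (-0.12), HOXB2 (-0.12), RARRES1 (0.05) and CD38 (0.06) did not pass the test, and BHLHE40 (0.56, adjusted p = 0.0501) lay just outside it. The calls of PLAAT4, MEIS2 and GPRC5A ended when either knockout array was dropped (adjusted p up to 0.084, 0.16 and 0.13), and that of MEIS2 also without control 1 and under reference gene scaling.

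Genes with a DR5 in a RefSeq promoter window, a list drawn up after the data had been seen, numbered 29, of which 15 were measured. Of these 1 was called higher, PANK2, a pantothenate kinase, at 9.26 and 9.23 on the knockout arrays and 8.65 and 8.68 on the control arrays (change 0.58, adjusted p = 0.0059, limma). None was called lower (limma; 3 of the 15 had an unadjusted p below 0.05), where 24.0% of all genes were called and 34.8% had an unadjusted p below 0.05. Their median change was 0.0078. With mean probe sets PANK2 was not called (0.12, adjusted p = 0.39), nor with either knockout array left out.

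In the wider enzyme family of ALDH1A1, 3 of 16 aldehyde dehydrogenases rose and 1 fell, where 24.0% of all genes were called. The median change was 0.18, with a range of -1.13 to 0.73. ALDH1B1, a mitochondrial enzyme that can also oxidise retinaldehyde, read 7.62 and 7.80 on the knockout arrays and 7.00 and 6.96 on the control arrays, and rose by 0.73 (SE 0.09, adjusted p = 0.0057, limma). ALDH7A1, an enzyme of lysine breakdown, rose by 0.66 (SE 0.08, adjusted p = 0.0042), and ALDH5A1, which clears succinic semialdehyde from GABA, rose by 0.36 (SE 0.08, adjusted p = 0.033).

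ALDH6A1, an enzyme of valine breakdown, read 8.39 and 8.24 on the knockout arrays and 9.29 and 9.60 on the control arrays. It fell by 1.13 (SE 0.13), 2.19-fold (adjusted p = 0.0042, limma). Of its 5 probe sets 4 changed by -0.75 to -1.13, and the dim gene-specific one gave -0.13 and was not called. With either knockout array dropped the 4 called aldehyde dehydrogenases lost their calls, as did most called genes of the whole set. Without knockout 1 the changes were -1.20 for ALDH6A1, 0.82 for ALDH1B1, 0.68 for ALDH7A1 and 0.30 for ALDH5A1. Without knockout 2 they were -1.06, 0.64, 0.64 and 0.42 in that order. Under reference gene scaling 2 of the 16 were called higher and 4 lower, against 1084 and 9873 of 19775 genes. ALDH5A1 (0.05) was then not called.

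**Figure D3:**
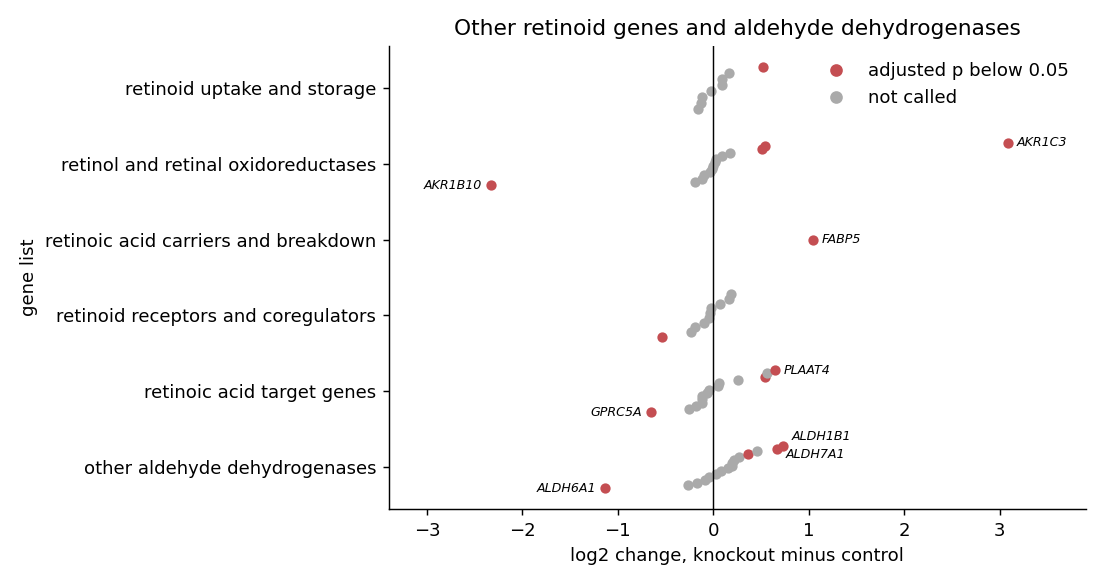
Log2 change, knockout minus control, of each measured gene (point) in 5 lists of retinoid genes and in the list of other aldehyde dehydrogenases, spread vertically within a list in order of change; red points passed an adjusted p below 0.05 and those beyond 0.6 are named. AKR1C3 at 3.09 and AKR1B10 at -2.33 lie apart, and most receptors and target genes lie near 0.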

How the data were processed

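Total RNA of 4 AGS cultures was amplified from the 3′ end of transcripts, labelled with biotin and hybridised to 1 array each, per the labels' protocols. The authors deposited log2 intensities of 54613 probe sets. Per the submitters' processing notes the tools were RMA and affy (versions not given in the sources used here), and the log2 scale follows from the range of the values. RMA equalises the arrays' distributions, so each difference is relative to the other transcripts, and it compresses differences of dim probe sets. Precision is limited by the number of arrays.

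Gene names came from the platform annotation, with symbols brought up to date by Entrez number against RefSeq (GRCh38.p14). Of the probe sets 41091 carried 1 symbol, 1801 carried several and 11721 carried none. Each of 19775 genes was read by its brightest probe set (mean of the 4 arrays). The groups were compared by limma 3.58.1 (R 4.3.3; lmFit, then eBayes) without covariates, on 2 residual degrees of freedom and 3.27 from the prior. P-values were adjusted by Benjamini-Hochberg over all 19775 genes, and the threshold for a call was 0.05. The same fit over all 54613 probe sets served for the other probe sets of a gene. The test was tested on simulated data. These had independent noise for each array, so they say nothing on the clone, the vector or the type of replicate. The 11 alternatives changed the probe set, the filter, the prior, the scaling or the arrays used.

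The members and lists were chosen with earlier results of these data known. The genes named were all 10 members, PRMT6, in each other list up to 4 called genes with the largest change (or, in a list without calls, its 2 largest changes), and the 3 genes whose pattern over the arrays lay nearest to that of ALDH1A1. The epithelial, fibroblast and leukocyte markers, BHLHE40 and PANK2, and receptors and targets named in a few clauses, were chosen after their values were seen. Detection calls were not used here. Replicate numbers are shared by the groups, and nothing in the labels says that they pair the arrays or that replicates were separate cultures, so p-values measure the spread between these arrays, which may be technical.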

Additional observations from a re-analysis of the deposited data

How the results depend on the processing

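The ALDH1A1 difference was 6.01 under reference gene scaling, which shifts every gene alike, and 6.27 to 6.38 with arrays left out in turn. Of the 16 called genes among the members, PRMT6 and the lists of retinoid genes and aldehyde dehydrogenases, the calls of 3 (AKR1C3, AKR1B10 and FABP5) were kept under all 11 alternatives, and 13 were lost with either knockout array left out, where the lone array is assumed to vary like the controls. None of the 16 changed direction. AKR1C3, AKR1B10 and FABP5 have 1 probe set each, so alternatives that change the probe set could not alter their changes. For 12 further called genes the alternatives were added after seeing the data: ODAM, FGB, PCDH7 and COL1A1 kept their calls wherever they had a value, and PANK2, COL3A1, LUM, KRT8, KRT19, ELF3, CLDN4 and CLDN7 lost theirs with either knockout array left out. Over all genes, 1084 were called higher and 9873 lower under reference gene scaling, against 2459 and 2281 on the deposited scale, and with arrays left out 154 to 1371 were higher and 354 to 1258 lower. Among the 9 tested members, 1 was called higher with mean probe sets, brighter genes only, an intensity trend (CRABP2 in each) or gene-specific probe sets (RARB), and 0 to 1 with arrays left out; 6 were called lower under reference gene scaling and 0 to 1 with arrays left out. Of the members' probe sets, 1 was higher with an intensity trend, and with arrays left out 0 were higher or lower. Wider retinoid genes numbered 3 higher and 21 lower under reference gene scaling, and 2 to 4 and 1 to 3 with arrays left out. Other aldehyde dehydrogenases numbered 5 higher and 2 lower among brighter genes, 5 and 3 with an intensity trend, 4 lower under reference gene scaling, 0 lower with gene-specific probe sets, and 0 to 2 higher and 0 to 1 lower with arrays left out. For comparison, the whole set gave 2998 genes higher and 2569 lower among brighter genes, where only genes at or above the median level were tested. It gave 3103 and 2696 with an intensity trend, 2415 and 1986 with mean probe sets, and 2150 and 1970 with gene-specific probe sets. The cause of the moves of all these counts was not tested, except that fewer arrays or fewer genes entered some fits. Members not called changed sign in places: ALDH1A2 was -0.27 and RARB -0.023 under reference gene scaling, and CYP26B1 was 0.13 with its gene-specific probe set. With arrays left out ALDH1A2 ran from -0.0875 to 0.16 (-0.05 without control 2), DHRS3 from -0.32 to 0.0034 and STRA6 from -0.18 to 0.0345 (0.02 without knockout 1).

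The replicate block gave 2035 genes higher and 1937 lower, 7 and 3 wider retinoid genes, 3 and 1 other aldehyde dehydrogenases, and 0 and 1 members. It lost the calls of PRMT6 (adjusted p = 0.076) and ALDH5A1 (0.061). Deviations of same-numbered arrays correlated at 0.05 across genes, and with 2 arrays a group this cannot show pairing. Without detection calls, levels near the bottom of the scale cannot be told from background.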
